A study of Mus musculus with 12 samples.

Results

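Gene expression in mouse hindlimb tissue after lymph node transfer (VLNT, 4 libraries) was set against hindlimb tissue with lymphedema and no transfer (LE, 4 libraries), across all genes. These 8 libraries were chosen by their titles from the 12 of the series. The other 4, from limbs given lymph node transfer together with the antibody ABTAA (VtA), entered the model to estimate the spread between libraries. Per the labels' protocols, the tissue was frozen on dry ice, RNA was taken with Trizol, and polyadenylated RNA was sequenced after a stranded library preparation. The labels give the tissue and the condition of each library. They do not state the strain, sex, age, time after surgery or number of animals, nor whether replicates came from separate animals. The p-values therefore measure the spread between these libraries, which may be technical. Libraries are named by group and number, LE1 to VLNT4.

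Lymphedema is a swelling that forms when lymphatic vessels fail to drain fluid and proteins from a tissue. The skin and the tissue under it then collect immune cells, mainly T cells and macrophages, and over time become fibrotic and fatty. In lymph node transfer, nodes are moved by surgery to the affected limb, where lymphatic vessels can grow towards them. The comparison addresses which transcripts of the limb differ after the transfer when no antibody is given.

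The libraries held 56.04 to 71.5 M counts, and what they contained differed most within LE. Over the 19740 genes tested, the median absolute difference between 2 libraries, in log2 CPM (read counts scaled to a common library size), ran from 0.35 to 1.64 within LE and from 0.35 to 0.73 within VLNT. LE2 and LE3 lay 0.32 to 0.75 from the VLNT libraries, so they were as near to VLNT as the VLNT libraries were to each other. LE1 lay 1.09 to 1.40 from them and LE4 0.64 to 1.23. The spread between libraries was wider in LE than in VLNT for 18131 genes (91.8%), with a median SD of 1.14 against 0.45 in log2 CPM.

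**Figure D1:**
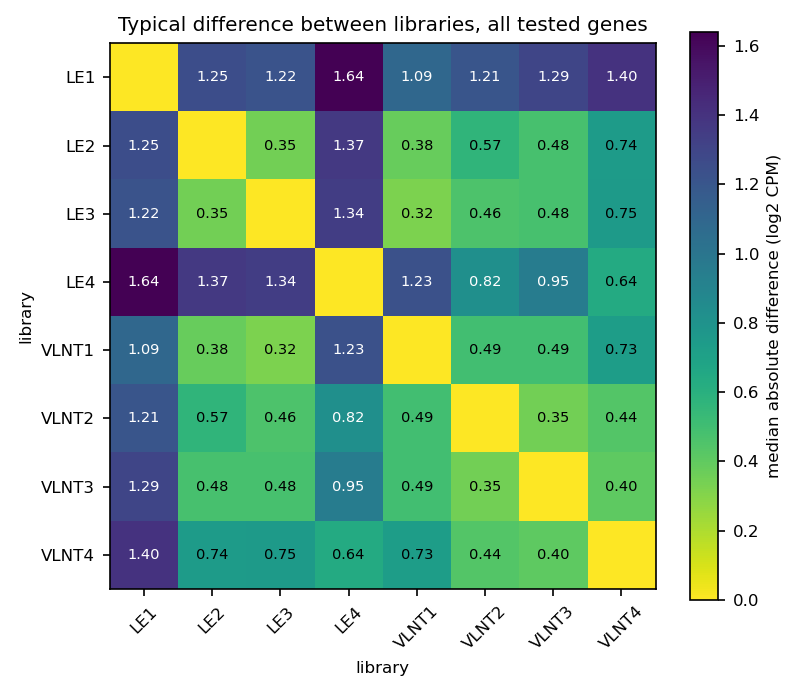
Each cell gives the median absolute difference in log2 CPM between the 2 libraries named on its row and column, over the 19740 genes tested. LE1 and LE4 are far from each other (1.64) and from LE2 and LE3, whereas LE3 and VLNT1 differ by 0.32.

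Markers of the tissues that a piece of limb can hold showed in which libraries the difference lay. Genes of fast skeletal muscle took 11.1%, 1.71%, 5.08% and 25.4% of the counts in LE1 to LE4, and 6.48%, 15.05%, 11.8% and 20.5% in VLNT1 to VLNT4. Keratinocyte genes took 3.75%, 4.25%, 3.13% and 0.0023% in LE and 3.78%, 1.99%, 2.61% and 1.49% in VLNT, so the epidermis was close to missing from LE4. Mitochondrially encoded transcripts took 0.433% of LE1 against 7.62% to 19.9% of the other LE libraries and 10.6% to 13.9% of VLNT. Ribosomal protein genes, in contrast, took 8.39% of LE1 and 0.614% to 3.02% of the other 7 libraries. Because LE1 and LE4 stood apart in opposite ways, values without both are given beside the results that rest on them. In whole tissue, fewer cells of a type and less RNA per cell cannot be told apart. Because the 4 LE libraries were so unlike, the scaling factors (TMM, which aligns the bulk of genes) ran from 0.676 in LE4 to 1.67 in LE2, and levels below are CPM after this scaling unless another unit is named.

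**Figure D2:**
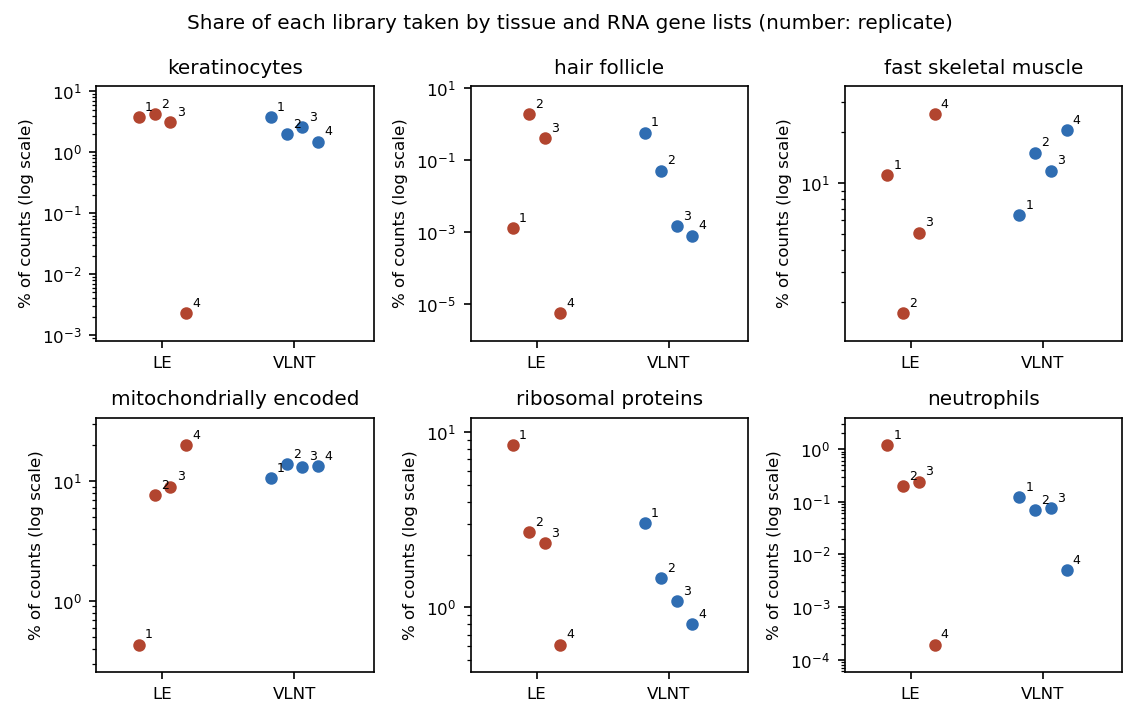
Each point is the share of a library's counts, in percent on a log axis, taken by the genes of a tissue or RNA list, for 4 LE and 4 VLNT libraries numbered by replicate. LE4 has 0.0023% keratinocyte counts and LE1 has 0.433% mitochondrial counts, whereas VLNT spans 1.49% to 3.78% and 10.6% to 13.9%.

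By edgeR's quasi-likelihood test with Benjamini-Hochberg adjustment, no gene passed: 0 of 19740 (0.0%) had an adjusted p under 0.05. At an unadjusted p under 0.05 there were 396 genes (2.01%), of which 27 were higher in VLNT (0.137%) and 369 lower (1.87%). This split depended on the tool, on the unit and on LE1 and LE4. The split was 209 higher and 31 lower by limma-voom and 211 and 58 on log2(TPM + 1). Without LE1 it was 37 and 42, without LE4 2036 and 1291, and without both 2748 and 424. Limma-voom called 0 and DESeq2 called 1, the pseudogene Gm9247. Limma-voom with sample weights, which gave LE1 and LE4 weights of 0.098 and 0.10 and the other 6 libraries 0.66 to 2.88, called 1251 genes higher (6.34%) and 111 lower (0.562%). As a description, 79 genes (0.4%) had groups that did not overlap, 44 with all 4 VLNT libraries above all 4 LE libraries (0.223%) and 35 with all below (0.177%). With the size factors of DESeq2 in place of TMM this split was 31 above and 64 below, and on the deposited TPM, which has equal library totals, 40 above and 12 below. Of genes with a mean of at least 1 CPM over LE and VLNT, 20 of 15100 lay above (0.132%) and 16 below (0.106%). Where genes were instead filtered at a mean of 1 CPM over all 12 libraries before scaling, 9 lay above and 36 below. The 10 largest differences in each direction among these are described next. Of these 20 genes, 17 kept separate groups with DESeq2's size factors, but 1, Gm38431, did so on TPM, so the separation of each of the others holds only for the scaled levels.

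Most of the listed interferon-inducible genes had lower values in VLNT, among them members of a family of GTPases that cells make in response to interferon gamma and that attack the vacuoles of intracellular parasites. Of 33 interferon response genes, 28 were lower, with a median log2 fold change of -0.47, against 0.01 over all genes tested, of which 51.3% were higher. Without LE1 alone, 22 were lower and 11 higher. With LE1 and LE4 left out, 33 of 33 were lower (median -0.64), where 48.1% of all genes were higher (median -0.03). In mean log2 CPM over the list, LE stood at 3.88, 3.78, 4.04 and 2.07 and VLNT at 3.80, 2.83, 2.92 and 2.98. The groups thus overlapped, as VLNT1 lay above LE2 and LE4 lay below all of VLNT. Leaving out a single library moved the list's median between -0.87 and -0.34, the latter without LE1. On log2(TPM + 1) the median was -0.17, on a scale where the median of all genes was 0.14. By edgeR, 0 of the 33 had an adjusted p under 0.05, 5 had an unadjusted p under 0.05, all of them lower, and 2 had groups that did not overlap. The fit with sample weights called 9 of the 33 lower. Over all genes tested, 1.87% were lower at that unadjusted p, 0.177% had all VLNT libraries below all LE libraries, and that fit called 0.562% lower.

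Tgtp1, a GTPase of this family, is annotated under the name T cell specific GTPase 1 (chromosome 11, 48985329 to 48992246, GRCm38.p6). It stood at 12.1, 17.0, 12.7 and 9.04 CPM in LE1 to LE4 and at 7.61, 5.17, 3.61 and 5.12 CPM in VLNT1 to VLNT4. All 4 VLNT libraries lay below the lowest LE library. The log2 fold change was -1.24 ± 0.31 (SE, n = 4 a group) with an unadjusted p of 0.00177 and an adjusted p of 0.99992 by edgeR. In the fit with sample weights it was called (adjusted p = 0.0213 by limma). On deposited TPM the groups met, with 3.47 in LE4 and 2.89 to 5.57 in VLNT, and the p was 0.0662 by limma. Its neighbour Tgtp2, chosen after its values were seen, stood at 12.4, 21.1, 18.8 and 9.08 CPM in LE and at 11.8, 6.81, 4.57 and 6.40 in VLNT (-1.05 ± 0.37). Tgtp1 and Tgtp2 are near-identical copies, and Tgtp1 overlaps Gm42074, so the counting could split reads between them.

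Igtp, another GTPase of the family (chromosome 11, 58199556 to 58207592), stood at 24.2, 21.7, 13.8 and 16.2 CPM in LE and at 13.7, 9.08, 9.65 and 11.8 in VLNT. The groups were apart by a margin of 13.8 against 13.7 CPM, and the log2 fold change was -0.78 ± 0.26. It too was called with sample weights (adjusted p = 0.0497 by limma). Irgm2, its neighbour and also of the family, showed no such difference, with 12.5, 20.8, 21.9 and 20.8 CPM in LE and 16.1, 18.2, 20.6 and 25.5 in VLNT (0.08 ± 0.26). Irgm1, a further member of the family, was at -0.24 ± 0.25. Irgm2 and Irgm1 were chosen after their values were seen.

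The promoters of these GTPase genes are shown because all 4 carry the same pair of interferon motifs, although their transcripts did not differ alike. The sequences are RefSeq's, on GRCm38.p6, from 250 bases before to 50 bases after the start, on chromosome 11. They lie at chr11:48992197-48992496 (minus strand) for Tgtp1, chr11:49064163-49064462 (minus) for Tgtp2, chr11:58199306-58199605 (plus) for Igtp and chr11:58214727-58215026 (plus) for Irgm2. Capitals mark a GAS motif (TTCNNNGAA, an element of genes that answer interferon gamma) followed by the core of an ISRE (2 copies of GAAA with any 2 bases between them, bound by interferon regulatory factors). Both strands were searched, and the 2 motifs do not overlap.
Tgtp1: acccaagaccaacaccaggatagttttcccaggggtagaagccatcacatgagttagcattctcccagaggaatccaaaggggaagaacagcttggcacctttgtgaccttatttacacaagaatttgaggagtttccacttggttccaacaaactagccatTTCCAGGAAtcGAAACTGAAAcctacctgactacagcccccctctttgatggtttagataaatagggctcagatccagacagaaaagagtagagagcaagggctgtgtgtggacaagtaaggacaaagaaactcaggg
Tgtp2: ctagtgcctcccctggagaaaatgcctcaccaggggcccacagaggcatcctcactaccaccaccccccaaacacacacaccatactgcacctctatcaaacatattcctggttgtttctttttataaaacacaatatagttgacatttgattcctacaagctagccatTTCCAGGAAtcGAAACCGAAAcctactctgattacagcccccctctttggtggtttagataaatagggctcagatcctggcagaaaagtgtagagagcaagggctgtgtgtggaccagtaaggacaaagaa
Igtp: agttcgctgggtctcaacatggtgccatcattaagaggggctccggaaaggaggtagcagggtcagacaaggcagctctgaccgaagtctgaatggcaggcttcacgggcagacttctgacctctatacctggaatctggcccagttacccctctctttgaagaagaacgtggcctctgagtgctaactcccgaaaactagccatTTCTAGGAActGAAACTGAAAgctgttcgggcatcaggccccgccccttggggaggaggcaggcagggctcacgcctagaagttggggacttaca
Irgm2: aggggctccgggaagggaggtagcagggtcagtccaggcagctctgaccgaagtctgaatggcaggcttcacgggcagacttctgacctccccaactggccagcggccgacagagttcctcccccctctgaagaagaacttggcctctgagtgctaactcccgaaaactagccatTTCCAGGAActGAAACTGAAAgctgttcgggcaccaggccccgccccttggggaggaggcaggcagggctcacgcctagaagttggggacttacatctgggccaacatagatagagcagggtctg
The GAS motif begins at -88 from the start in Tgtp1, -81 in Tgtp2, -45 in Igtp and -75 in Irgm2, and the ISRE core begins 11 bases further on in each. Of 32851 promoters in the RefSeq table, 0.454% held both motifs, 8.3% a GAS motif and 3.44% an ISRE core. Among the 31 promoters of 27 genes of the interferon list, the shares were 25.8%, 35.5% and 51.6%. A match describes these letters and not a bound site.

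Other members of the list had wider errors. Cxcl9, a chemokine that draws activated T cells, stood at 6.70, 29.4, 8.53 and 0.803 CPM in LE and 4.84, 2.36, 2.70 and 2.67 in VLNT (-1.85 ± 0.80). Irf1, a transcription factor of the pathway, stood at 67.1, 37.8, 28.9 and 11.4 CPM in LE and at 22.3, 20.6, 20.2 and 19.0 in VLNT (-0.82 ± 0.42). In both genes LE4 was the lowest of the 8 libraries and the other LE libraries lay above all of VLNT. Among guanylate-binding proteins, which act on the same vacuoles, Gbp2 stood at 28.8, 52.0, 33.7 and 10.8 CPM in LE and 23.8, 14.2, 17.8 and 18.2 in VLNT (-0.76 ± 0.43). Ifi47, a further GTPase, was at -1.03 ± 0.71. Gbp2 and Ifi47 were both called with sample weights (adjusted p = 0.0441 and 0.0394 by limma).

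Without LE1, 11 of the 33 genes of the list were higher, against 5 with all libraries. Bst2 and Psmb8 are given as 2 genes whose difference nearly vanished when LE1 alone was left out. With both LE1 and LE4 left out, all 33 genes were lower, these 2 included. Bst2, which tethers budding viruses, stood at 173, 15.2, 25.3 and 8.75 CPM in LE and 28.0, 16.8, 8.55 and 9.54 in VLNT, a log2 fold change of -1.82 ± 0.81 that moved to -0.06 without LE1. Psmb8, a subunit of the immunoproteasome, was at 208 CPM in LE1 and 7.29 to 27.4 in the other LE libraries, against 15.6 to 27.3 in VLNT (-1.78 ± 0.84, and 0.02 without LE1). The 5 genes of the list that were higher with all libraries were Irgm2, Usp18, Oas2, Gbp7 and Irf9, at log2 fold changes of 0.08 to 0.30. Apart from the named rule's Tgtp1 and Igtp, the interferon genes were picked for their roles after their values were seen.

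The values of markers of cells that make interferon gamma are given beside these. Of 20 T cell genes, 18 were lower in VLNT (the exceptions were Cd8a and Cd28), with a median log2 fold change of -0.74 and a range of -1.15 to -0.19 with 1 library left out, and of 0.20 by limma-voom. Their summed level was 168, 78.6, 89.4 and 11.4 CPM in LE and 75.8, 50.9, 48.6 and 29.2 in VLNT, so LE4 was the lowest and Cd3d was at 0 there. Of 10 natural killer and cytotoxic genes, 6 were lower, with summed levels of 1.23 to 19.1 CPM in LE and 5.38 to 11.5 in VLNT. Their median was -0.50, but -0.11 without LE1, 0.60 by limma-voom and 0.73 with the fast muscle list as covariate. It was -0.59 without LE1 and LE4, where 9 of the 10 were lower. Whether fewer such cells have a part in the interferon difference was not tested. With the keratinocyte list as a covariate, Tgtp1 and Igtp stood at -1.28 and -0.86, and with the fast muscle list at -1.07 and -0.73. The median of the 33 interferon genes, -0.47 with no covariate, was -0.71 with the keratinocyte list and -0.23 with the fast muscle list. Over all genes tested the medians of these 2 fits were 0.03 and 0.12.

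**Figure D3:**
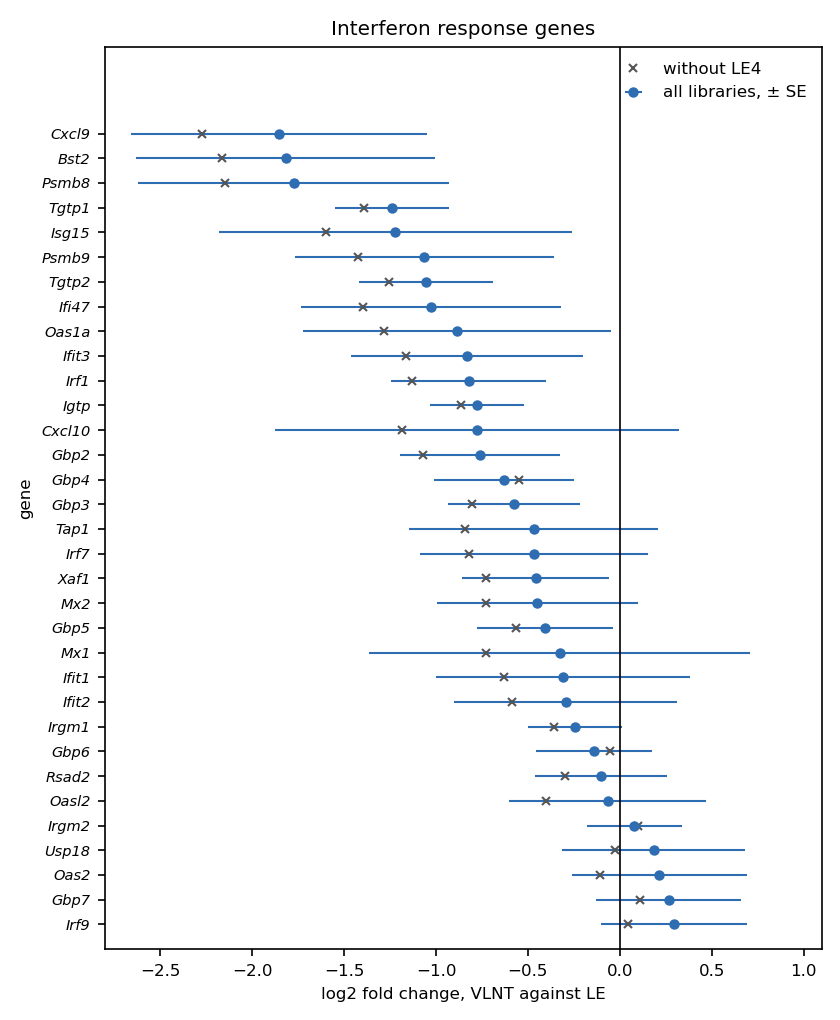
Points give the log2 fold change of VLNT against LE for 33 interferon response genes with bars of 1 SE, and crosses the value without LE4, the library with almost no keratinocyte counts. With all libraries 28 of the 33 lie below 0, and Tgtp1 lies at -1.24 and Igtp at -0.78.

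Has3 was the gene with the smallest p in the comparison. It encodes hyaluronan synthase 3, one of the membrane enzymes that spin hyaluronan, a water-binding matrix polysaccharide that leaves tissue with the lymph (chromosome 8, 106870242 to 106882902). It stood at 3.12, 6.94, 6.59 and 4.48 CPM in LE and at 17.8, 8.91, 44.4 and 21.5 in VLNT. The lowest VLNT library, VLNT2, lay above the highest LE library, and VLNT3 was the highest. The log2 fold change was 2.13 ± 0.47 (unadjusted p = 0.000731, adjusted p = 0.99992 by edgeR), or 4.38-fold, and ran from 1.61 to 2.40 with single libraries left out. It was 1.74 without LE1 and LE4, and 2.13 with keratinocyte genes and 2.30 with fast muscle genes as covariate. In the fit with sample weights it did not pass (adjusted p = 0.0749 by limma). On TPM the groups overlapped through VLNT2 (2.73, against 3.54 in LE2), and the log2 fold change of TPM + 1 was 1.54 ± 0.49. In the VtA libraries Has3 stood at 6.40, 3.49, 3.96 and 5.70 CPM.

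The other hyaluronan synthases did not share this. Has1 stood at 0.824 to 5.16 CPM in LE and 0.764 to 5.18 in VLNT (0.06 ± 0.66), and Has2, the main synthase of fibroblasts, at 0.296 to 12.1 and 3.89 to 12.8 (0.24 ± 0.80). Whether Has3 differed more than Has1 or Has2 was not tested. Of 14 genes of hyaluronan synthesis, breakdown and binding, 13 were higher in VLNT, with a median of 0.29, and the exception was Stab1, a scavenger receptor. Without LE1 and LE4, 6 were higher and 8 lower (median -0.04), so the direction of the list turned without these libraries and that of Has3 did not. Has1 and Has2 were chosen after their values were seen.

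Further genes had all VLNT libraries above all LE libraries. Ccne2, cyclin E2, which starts DNA synthesis, stood at 0.514, 3.29, 3.35 and 3.63 CPM in LE and 5.29, 5.28, 4.73 and 4.93 in VLNT (0.91 ± 0.49, 0.56 without LE1). The 4 VLNT libraries lay close together, and LE1 was far below the other LE libraries. Tead4, a transcription factor through which the Hippo pathway acts, stood at 4.33, 6.67, 6.65 and 6.49 CPM in LE and 7.38, 7.44, 10.2 and 16.02 in VLNT (0.77 ± 0.36). Amigo2, an adhesion molecule, stood at 1.29, 1.68, 1.49 and 1.92 CPM in LE and 2.07, 2.73, 1.96 and 3.41 in VLNT (0.67 ± 0.31). Aldh1a7, an aldehyde dehydrogenase, ran from 0.870 to 1.68 CPM in LE and from 1.70 to 4.12 in VLNT (1.06 ± 0.46). Lonrf3, a RING finger protein, ran from 2.37 to 4.31 and from 4.44 to 7.72 (0.79 ± 0.38, and 0.49 without LE1 and LE4). The groups of Amigo2, Aldh1a7 and Lonrf3 overlapped with DESeq2's size factors.

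In 4 of these genes the level in LE was near 0 in at least 1 library. The long non-coding RNA Gm38431, which overlaps Fdx2 and Raver1, stood at 0.237, 0.183, 0 and 0.211 CPM in LE and 1.39, 0.752, 5.93 and 1.14 in VLNT (3.88 ± 1.38). Slc25a48, a mitochondrial carrier, stood at 0.850, 4.17, 3.67 and 0 CPM in LE and 5.58, 4.93, 10.4 and 6.81 in VLNT (1.67 ± 1.32, and 0.79 without LE1 and LE4). The long non-coding RNA 2310043M15Rik was at 0 in LE1 and LE4, at 1.12 and 1.54 CPM in LE2 and LE3, and at 1.73 to 2.38 in VLNT. Pcdhgb7 ran from 0 to 1.55 CPM in LE and from 1.74 to 4.19 in VLNT (1.78 ± 0.89, and 1.01 without LE1 and LE4), but it belongs to a cluster of protocadherin genes with shared exons, so its reads are uncertain.

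Among the lower genes, Pde9a, a phosphodiesterase that degrades cyclic GMP, had a difference that no single library set. It stood at 5.69, 4.76, 2.88 and 1.88 CPM in LE and 1.71, 1.61, 1.58 and 0.971 in VLNT. The log2 fold change was -1.37 ± 0.40 (-1.61 to -1.11 with 1 library left out), and it was called with sample weights (adjusted p = 0.0277 by limma). Pthlh, the parathyroid hormone-like peptide that keratinocytes secrete, stood at 4.29, 5.63, 4.29 and 3.82 CPM in LE and 3.69, 2.14, 3.43 and 1.63 in VLNT (-0.73 ± 0.34). LE4 had a level of Pthlh near those of LE1 and LE3 although it held almost no keratinocyte counts. The long non-coding RNA 1500015A07Rik ran from 4.22 to 7.95 CPM in LE and 2.99 to 3.71 in VLNT (-0.72 ± 0.30), and Zfp13, a zinc finger protein, from 2.80 to 4.98 and 2.15 to 2.51 (-0.60 ± 0.31, and -0.38 without LE1).

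Other differences among the lower genes were set by LE1. Rogdi stood at 49.2, 9.01, 7.71 and 7.98 CPM in LE and 7.56, 7.40, 5.68 and 5.10 in VLNT, and its log2 fold change of -1.52 ± 0.56 moved to -0.35 without LE1. Rab13, a small GTPase of cell junctions, stood at 43.5, 8.46, 8.48 and 7.94 CPM in LE and 7.93, 6.72, 6.33 and 5.75 in VLNT (-1.35 ± 0.53, and -0.31 without LE1). Vmac (-0.55 ± 0.36) moved to -0.19 without LE1, and the pseudogene Gm20075 (-0.53 ± 0.27) to -0.32.

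**Figure D4:**
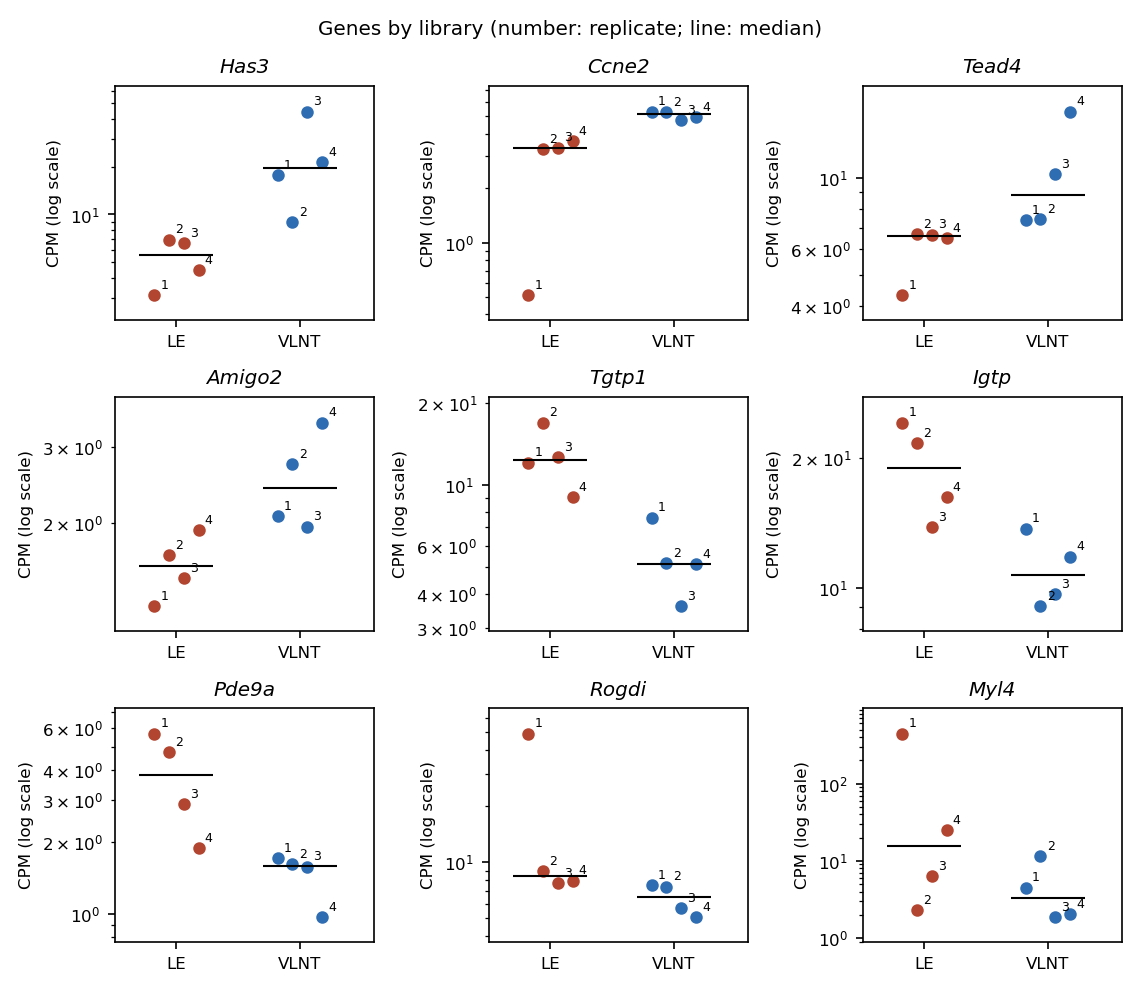
CPM on a log axis for 9 genes in 4 LE and 4 VLNT libraries, numbered by replicate, with the median of each group as a line. Has3, Ccne2, Tead4 and Amigo2 have all VLNT points above all LE points, Tgtp1, Igtp and Pde9a all below, and Rogdi and Myl4 show 1 high LE library, LE1.

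Several of the genes with the smallest p, and others of their kind, were high in LE1. Myl4, an embryonic myosin light chain, stood at 443 CPM in LE1 and 2.28 to 25.2 in the other LE libraries, against 1.89 to 11.6 in VLNT (-4.57 ± 1.43). Tnnt2, the cardiac troponin T that is also made in embryonic muscle, stood at 177 CPM in LE1, 2.24 to 4.64 in the other LE libraries and 1.99 to 4.15 in VLNT (-4.08 ± 1.28, and -0.46 without LE1). Myh3, the embryonic myosin heavy chain, stood at 356 CPM in LE1, 0.507 to 17.5 in the other LE libraries and 3.80 to 12.7 in VLNT (-3.66 ± 1.44), and its sign turned without LE1 (0.05).

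The pseudogenes Rpsa-ps5 and Gm11824 went with the ribosomal protein genes. They stood at 30.0 and 29.9 CPM in LE1 and at 0.355 to 0.467 in the other LE libraries, against 0.185 to 0.630 in VLNT. Rpsa itself, a ribosomal protein, stood at 11656 CPM in LE1 and 527 to 1208 in the other 7 libraries. All 28 ribosomal protein genes tested were lower in VLNT (median -1.24), and without LE1 their median was 0.03. With both LE1 and LE4 left out, 27 of the 28 were lower (median -0.26). Reads of such pseudogenes are uncertain, because their parent genes are near-identical. Gm9247, the gene DESeq2 called (adjusted p = 8.47e-05), is another pseudogene, at 59.5, 0.0304, 13.1 and 0.486 CPM in LE and 0.0656 to 0.170 in VLNT. It was thus high in LE1 and LE3 only.

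The other 2 of the 10 smallest p were low throughout. Erc2, a scaffold of synapses, stood at 1.54, 0.436, 0.263 and 0.486 CPM in LE and at 0.0617 to 0.210 in VLNT (-2.36 ± 0.73), and all VLNT libraries lay below LE. LOC115490193, a long non-coding RNA, had no count in LE1 to LE3 and stood at 0.0422 CPM, from 2 counts, in LE4, against 0.0787 to 0.185 CPM in VLNT.

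Genes of lymph node tissue were not higher after transfer as a group, and the libraries with such signal differed by cell type. Of 10 tested genes of lymph node stroma and high endothelial venules, 9 were lower in VLNT, with a median of -0.90. Without LE1 7 were lower, with a median of -0.14, without LE1 and LE4 the median was -0.64, and on log2(TPM + 1) it was -0.20. Lta, lymphotoxin A, stood at 1.09, 0.416, 0.691 and 0.359 CPM in LE and 0.354, 0.251, 0.275 and 0.231 in VLNT (-1.19 ± 0.49), and its groups did not overlap. Ccl21b, a copy of the chemokine that guides cells into lymphatics and nodes, stood at 16.8, 5.15, 11.6 and 5.94 CPM in LE and 7.204, 4.68, 3.61 and 3.64 in VLNT (-1.05 ± 0.45, and -0.66 without LE1). Its copy Ccl21a stood at 45.3, 25.4, 51.0 and 15.5 CPM in LE and 44.4, 24.3, 17.6 and 17.9 in VLNT (-0.40 ± 0.48), and counting could split the reads of the 2. Ltb, lymphotoxin B, stood at 31.7 CPM in LE1 and 0.0845 to 2.88 in the other LE libraries, against 0.493 to 2.02 in VLNT (-2.71 ± 1.23, and -0.32 without LE1).

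A single library of the transfer group, VLNT1, held most of the Cxcl13, Ms4a1 and Igkc transcripts of its group. Cxcl13, the chemokine of B cell follicles and the 1 gene of the node list that was higher, stood at 14.3 CPM in VLNT1, 0.106 to 0.537 in VLNT2 to VLNT4 and 0.0422 to 1.16 in LE. Ms4a1, which encodes the B cell marker CD20, stood at 1.23 CPM in VLNT1 and at 0.0597 to 0.108 in the other VLNT libraries, against 0 to 0.117 in LE. Blk, a kinase of B cells, went the other way, with 1.76, 0.71, 5.78 and 0.169 CPM in LE and 0.853, 1.16, 0.119 and 0 in VLNT (-1.98 ± 1.28, and -0.71 without LE3). Of 11 B cell genes 6 were higher and 5 lower. Their summed level was 14.5, 3.85, 13.6 and 2.34 CPM in LE and 13.7, 6.40, 2.66 and 1.76 in VLNT. By this sum VLNT1 was no higher than LE1. In mean log2 CPM over the list, however, VLNT1 was the highest of the LE and VLNT libraries, at 0.16. By that measure LE stood at -1.09, -1.815, -0.84 and -2.28, and VLNT2 to VLNT4 at -1.25, -2.49 and -3.03. Igkc, the kappa light chain constant region, stood at 321 CPM in VLNT1, 0.418 to 2.18 in the other VLNT libraries and 0.148 to 17.7 in LE (3.38 ± 1.88, and -2.42 without VLNT1). Plasma cell genes took 0.149% of the counts of VLNT1, 0.0329% to 0.0526% of the other VLNT libraries and 0.0143% to 0.101% of LE. The levels of Cxcl13, Ms4a1 and Igkc in VLNT1 thus did not recur in VLNT2 to VLNT4. Ltb and Cxcl13 were chosen after their values were seen.

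Neutrophil genes were lower in 12 of 13 (median -2.42, the exception being Mmp8), and without LE1 the median was -0.04. With both LE1 and LE4 left out, 9 of the 13 were lower (median -0.59). S100a9, a neutrophil calcium-binding protein, stood at 9181, 675, 1003 and 0.486 CPM in LE and 495, 356, 243 and 24.8 in VLNT (-3.28 ± 1.98). Among 20 genes of macrophages and monocytes, 11 lay lower (median -0.25, and 0.33 without LE1). Of these 20, 14 were lower without LE1 and LE4 (median -0.12). Cd3d, a part of the T cell receptor complex, stood at 26.3, 2.495, 3.70 and 0 CPM in LE and 2.69, 1.37, 0.645 and 0.786 in VLNT (-2.56 ± 1.41). Zap70, a kinase of that receptor, moved from -1.41 ± 0.85 to -0.09 without LE1. By edgeR, 0 genes of these lists had an adjusted p under 0.05.

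Lymphatic endothelial genes differed by less than the spread between the LE libraries. Of 14 such genes 9 were higher in VLNT (median 0.13), and without LE1 and LE4 5 of the 14 were higher and 9 lower (median -0.19). Prox1, the transcription factor that sets lymphatic identity, stood at 0.297, 4.06, 5.24 and 2.34 CPM in LE and 5.77, 3.72, 4.0 and 3.82 in VLNT (0.53 ± 0.61). Lyve1, a hyaluronan receptor of lymphatic vessels, stood at 1.64, 7.04, 14.8 and 7.98 CPM in LE and 20.5, 9.28, 8.36 and 8.63 in VLNT (0.57 ± 0.53). Flt4, the receptor of VEGF-C, stood at 2.47, 8.32, 11.9 and 10.2 CPM in LE and 12.5, 10.7, 9.86 and 12.6 in VLNT (0.48 ± 0.42). In all 3 genes LE1 was the lowest library. Reln (0.34 ± 0.56) and Pdpn (-0.25 ± 0.65) had errors larger than the difference. Foxc2 was lower in VLNT, by more than its error (-1.17 ± 0.76).

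Of the 9 genes around the Tie receptors, 7 were higher (median 0.24, and -0.06 without LE1 and LE4), and the 2 lower were Angpt4 and Angptl4. Without LE1 alone, all 9 were higher (median 0.25). Tek, which encodes Tie2, stood at 6.33, 11.5, 25.3 and 30.5 CPM in LE and 15.8, 28.5, 29.0 and 31.6 in VLNT (0.51 ± 0.43). Its ligands Angpt1 and Angpt2 differed by 0.40 ± 0.43 and 0.24 ± 0.47, and Tie1 by 0.09 ± 0.34. Among 12 VEGF ligands and receptors 9 were higher (median 0.19). Vegfa, the main angiogenic factor, stood at 40.6, 40.7, 46.1 and 219 CPM in LE and 46.7, 144, 158 and 204 in VLNT (0.67 ± 0.61). The fit with sample weights called Vegfa higher (adjusted p = 0.0274 by limma). In both groups its level was highest in the library with the largest share of fast muscle counts, LE4 and VLNT4, and the part of muscle in its difference was not tested. The lymphatic growth factors Vegfc (0.18 ± 0.34) and Vegfd (-0.13 ± 0.47) differed by less than their errors. Pgf, placental growth factor, stood at 32.0 CPM in LE1 and 0.866 to 1.97 in the other 7 libraries (-2.76 ± 0.96).

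Skeletal muscle genes changed their direction with the LE libraries that were used. Over all libraries, 9 of 22 fast muscle genes were higher in VLNT (median -0.12), whereas without LE4 19 were higher (median 1.27) and without LE1 and LE4 22 were (median 2.59). For 11 slow muscle genes the medians were 0.15, 1.11 and 4.30, and for 26 nuclear genes of the respiratory chain -0.10, 0.69 and 1.42. The fit with sample weights called 15 of the 22 fast muscle genes, 6 of the 11 slow muscle genes and 15 of the 26 respiratory chain genes higher. Of all genes tested, that fit called 6.34% higher. Myh7, the slow myosin heavy chain, stood at 5.28, 2.40, 3.65 and 125 CPM in LE and 81.1, 370, 156 and 5.26 in VLNT (2.16 ± 1.39), and it was called in that fit (adjusted p = 0.0406 by limma). LE4 and VLNT4 thus broke the order of the groups in opposite ways. Atp2a2, the calcium pump of slow muscle, stood at 35.8, 164, 137 and 128 CPM in LE and 174, 329, 350 and 138 in VLNT (1.09 ± 0.54). The mitochondrial gene ND5 stood at 146, 2752, 3389 and 15182 CPM in LE and 4062, 10344, 8009 and 11724 in VLNT (0.67 ± 1.09). Whether the amount of muscle in each piece accounts for these values was not tested.

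Skin genes depended on the libraries in the same way. Of 21 keratinocyte genes 12 were higher in VLNT (median 0.32), and without LE1 and LE4 1 was (median -0.28). All 17 hair follicle genes tested were lower (median -1.43), but with single libraries left out their median ran from -4.35 to 0.55. Their share of the counts was 0.00127%, 1.88%, 0.403% and 5.71e-06% in LE and 0.570%, 0.0506%, 0.00145% and 0.0008% in VLNT, so it varied by orders of magnitude in both groups. Of the cell cycle list, 18 of 26 genes lay higher, at a median of 0.20, and without LE4 6 were (median -0.13). Without LE1, in contrast, all 26 were higher (median 0.37). Mcm2, a part of the helicase that unwinds DNA for replication, stood at 11.9, 15.8, 15.2 and 11.96 CPM in LE and 22.9, 17.5, 19.9 and 15.4 in VLNT (0.47 ± 0.22), and its groups overlapped through VLNT4. Matrix and fibrosis genes were lower in 15 of 25, with a median of -0.04, and -0.52 without LE1 and LE4.

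**Figure D5:**
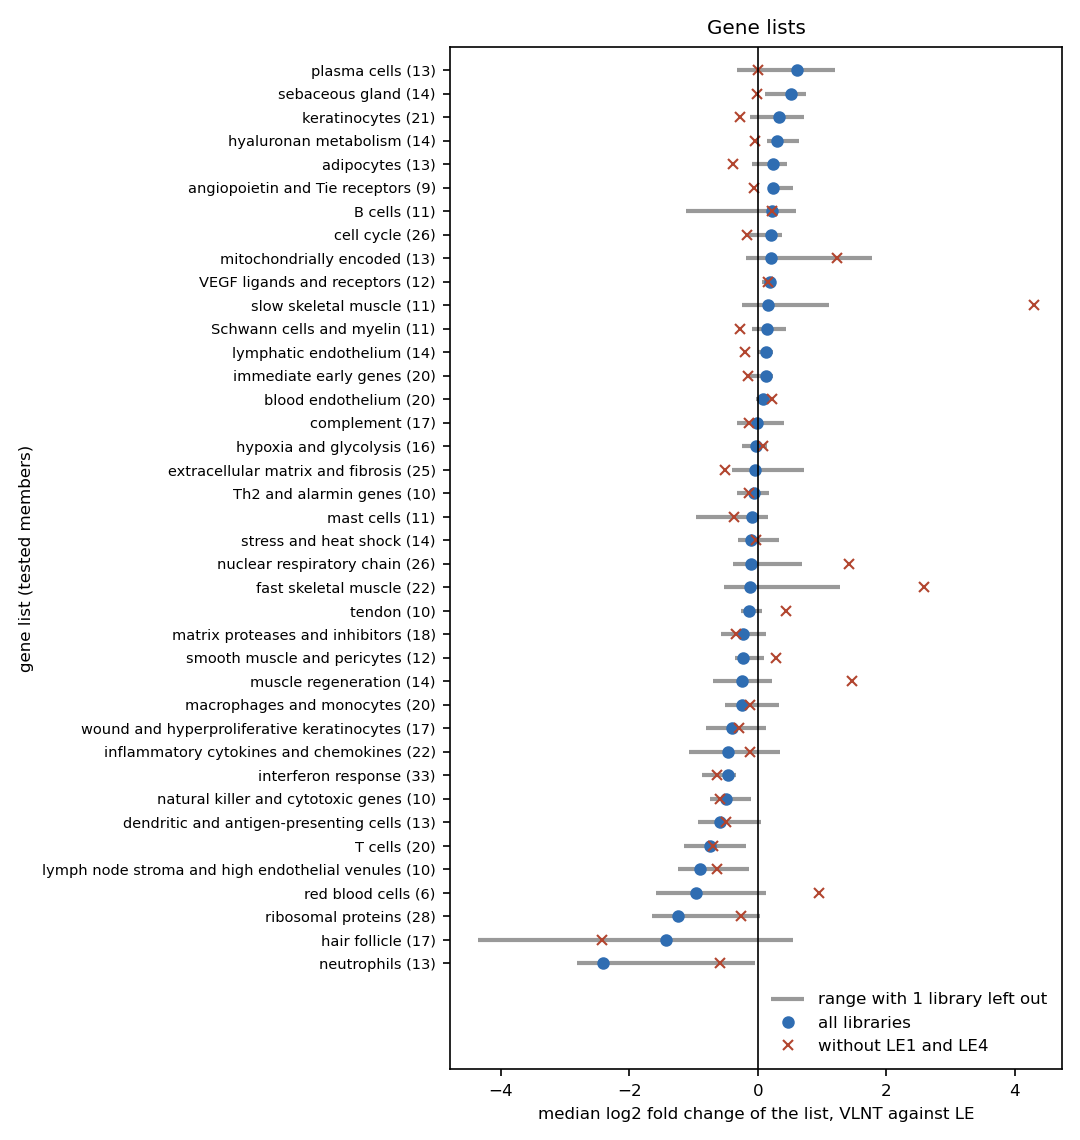
Median log2 fold change of VLNT against LE for 39 gene lists, with the number of tested genes in brackets. Circles use all libraries, grey bars span the values with 1 library left out, and crosses leave out LE1 and LE4. The fast muscle median moves from -0.12 to 2.59, whereas the interferon median stays below 0 throughout, from -0.87 to -0.34 with 1 library left out.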

How the data were processed

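RNA from mouse hindlimb was measured by RNA-seq in 12 libraries. The deposited table held 45777 genes, with raw read counts, FPKM and TPM made by the authors, 1 column per library. The tools listed in the submitters' processing notes are HISAT2 2.1.0, StringTie 2.1.3b, Trimmomatic and bcl2fastq 2.20.0. These notes list mm10 and GRCh38 as builds, with no role for either. No annotation, strand setting or treatment of multi-mapping reads is stated there, so reads of overlapping genes and near-identical copies are uncertain. The FPKM values deposited by the authors were not used in any result, and the deposited TPM served as an alternative on log2(TPM + 1).

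Counts were scaled by TMM, filtered with filterByExpr (19740 genes, at least 99.9% of each library's counts) and tested with edgeR 4.0.16's quasi-likelihood test in R 4.3.3, in 1 fit of the group means of all 12 libraries. The contrast was VLNT minus LE, p-values were adjusted by Benjamini-Hochberg over all genes tested, and the threshold was 0.05. Totals were 56.04 to 72.54 M counts, and the common dispersion was 0.470, so the spread between libraries and not the depth set the precision. Levels are CPM after TMM scaling, errors of log2 fold changes are SEs, and list scores are mean log2 CPM with a prior count of 2. The script was tested on simulated data. Coordinates and biotypes come from RefSeq GRCm38.p6, where 45679 gene IDs matched. Of the genes written in the lists, Loricrin, Krt85 and Ahsp matched no row.

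Alternatives were DESeq2 1.42.0, limma 3.58.1 (voom, voom with sample weights, and log2 TPM), DESeq2's size factors, other filters, LE and VLNT alone, a replicate block, keratinocyte or fast muscle scores as covariate, and libraries left out. Across 12 pairs of replicates 0 were identical.

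The libraries compared and the 39 gene lists were chosen with earlier results of these data known, and 1 gene of the interferon list is not reported here. Named genes were those with the 10 largest differences in each direction among genes with groups that do not overlap and a mean of at least 1 CPM, the 10 smallest p, for each list described the 2 smallest p and up to 3 members with separate groups, and a core list of lymphatic, Tie and VEGF genes. Of list genes the text names those of the lists it describes. Tgtp2, Cxcl9, Bst2, Ifi47, Gbp2, Irgm2, Irf1, Psmb8, Irgm1, Has1, Has2, Ltb, Cxcl13 and the members named only as exceptions in a list were chosen after their values were seen, whether or not the rule also named them.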

Additional observations from a re-analysis of the deposited data

Results flagged for a closer look

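In 45 of 216 groups of 4 libraries examined, 1 library lay far from the other 3 by Dixon's test. The groups came from the genes named and the gene lists. Many of these genes were picked by their values, so the test's chance rate of about 5% cannot be set against this count. LE1 was the library in many of them. It was low for Ccne2 (0.514 CPM), Tead4 (4.33 CPM) and Irgm2 (12.5 CPM). LE1 was high for Rogdi (49.2 CPM), Rab13 (43.5 CPM), Vmac (12.8 CPM) and Gm20075 (10.1 CPM). It was also high for the muscle genes Myl4 (443 CPM), Tnnt2 (177 CPM) and Myh3 (356 CPM), and for Rpsa (11656 CPM), Rpsa-ps5 (30.0 CPM) and Gm11824 (29.9 CPM). Among immune and vessel genes, LE1 was high for Bst2 (173 CPM), Psmb8 (208 CPM), Ltb (31.7 CPM), Cd3d (26.3 CPM), S100a9 (9181 CPM) and Pgf (32.0 CPM).

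LE4 was high for Myh7 (125 CPM), Vegfa (219 CPM) and LOC115490193 (0.0422 CPM, from 2 counts). In mean log2 CPM over a list, LE4 was low for T cells (-2.799), natural killer and cytotoxic genes (-3.94), Th2 and alarmin genes (1.35), dendritic and antigen-presenting cells (0.50) and mast cells (-0.11). The same held for interferon response (2.07), cell cycle (-0.59), immediate early genes (2.05), keratinocytes (-0.90), wound and hyperproliferative keratinocytes (-3.51) and sebaceous gland (0.43).

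In the transfer group, VLNT1 was high for Cxcl13 (14.3 CPM), Ms4a1 (1.23 CPM), Igkc (321 CPM), Cxcl9 (4.84 CPM), Ifi47 (15.7 CPM), Psmb8 (27.3 CPM), Prox1 (5.77 CPM) and Lyve1 (20.5 CPM). Its mean log2 CPM was high for plasma cells (4.26) and interferon response (3.80). VLNT2 was high for Angpt1 (13.2 CPM), and VLNT3 for Gm38431 (5.93 CPM).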

How the results depend on the processing

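The count of 0 genes called by edgeR stayed 0 with limma-voom, log2 TPM, other scaling and filters, LE and VLNT alone, either covariate and each library or LE1 and LE4 left out; DESeq2 called 1 and limma-voom with sample weights 1362. Genes at an unadjusted p under 0.05 (396) numbered 666 by DESeq2, 240 by limma-voom, 4762 with sample weights, 129 with LE and VLNT alone, 2073 with the fast muscle and 2641 with the keratinocyte covariate, 819 with no filter and 3172 without LE1 and LE4. With 1 library left out they ran from 79 (without LE1) to 3327 (without LE4), with 1058 without LE2, 1121 without LE3, 216 without VLNT2, 100 without VLNT3 and 116 without VLNT4. The 79 genes whose groups do not overlap became 163 with no filter, 45 with genes filtered at a mean of 1 CPM over all 12 libraries, 52 on TPM and 4772 without LE1 and LE4, where fewer libraries must be separated. With 1 library left out they ran from 115 to 1855 (without LE4). The replicate block gave 0 called genes and 184 at an unadjusted p under 0.05. The deviations of same-numbered libraries from their group means correlated at 0.172, -0.209, -0.0532 and 0.564, and 2 of 4 correlated best with their own number. These 4 values are too few to show whether the numbers pair the libraries.

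Of 1374 alternative values for 69 genes, 53 turned sign, in 16 genes. As edgeR called 0 genes, all 69 were without a call. DESeq2 gave Irgm2 -0.020, Has1 -0.029 and Tie1 -0.025, and its size factors in edgeR Irgm2 -0.019, Has1 -0.028 and Tie1 -0.026. The fast muscle covariate gave Tie1 -0.15 and Vegfd 0.033, and the keratinocyte covariate Has1 -0.047. Log2 TPM gave Pdpn 0.21 and Vegfd 0.089. Limma-voom gave Has1 -0.13 and Pdpn 0.085, and the filter at 1 CPM Has1 -0.036. Sample weights gave Irgm2 -0.091, Has1 -1.004, Has2 -0.29, Cxcl13 -1.01, Igkc -1.68, Myh3 1.49, Angpt2 -0.47, Prox1 -0.16, Lyve1 -0.20, Reln -0.35 and Vegfc -0.037. Without LE1 and LE4, Myl4 was 0.20, Irgm2 -0.13, Has2 -0.40, Myh3 1.79, Angpt2 -0.21, Prox1 -0.13 and Reln -0.27. With 1 library left out, Irgm2 ran from -0.076 to 0.17, Has1 -0.27 to 0.43, Has2 -0.23 to 0.87, Cxcl13 -0.75 to 3.09, Igkc -2.42 to 4.16, Myh3 -4.07 to 0.047 and Angpt2 -0.25 to 0.59. Psmb8 ran from -2.15 to 0.017, Tie1 -0.12 to 0.30, Pdpn -0.61 to 0.43, Reln -0.015 to 0.78, Vegfc -0.11 to 0.35 and Vegfd -0.40 to 0.20. Apart from the libraries left out, the cause of these changes was not tested. Whether the replicates are separate animals is not stated, and the spread within LE, not depth, limits what the comparison can detect.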
